A study of Danio rerio with 16 samples.

Results

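Some genes of zebrafish larvae raised in PCB153 stood at another level at the low and middle concentrations than in both the solvent control and the highest concentration. These genes were looked for by setting the mean of the 0.1 and 1 µM groups against the mean of the DMSO and 10 µM groups. All 16 libraries of the series enter this contrast, 8 on the middle side (0.1 and 1 µM) and 8 on the extreme side (DMSO and 10 µM), with 4 libraries in each of the 4 groups. The groups and the contrast come from the labels and from no measured value.

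The data are read counts per gene from total RNA of whole larvae aged 5 days. The solvent controls stood in 0.1% DMSO, and the exposed animals in PCB153 at 0.1, 1 or 10 µM, in each case from hour 4 to hour 120 after fertilisation. The design text calls the 4 libraries of a group biological replicates, but the labels give no strain, clutch, batch or number of larvae, so the p-values measure the spread between these libraries. In whole larvae, fewer cells of a type and less RNA per cell cannot be told apart.

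PCB153 is a polychlorinated biphenyl with chlorine in the ortho positions of both rings, and it does not act through the dioxin receptor as the flat congeners do. Responses that do not follow dose in one direction are known for hormones and hormone mimics. Cells that grow build ribosomes in the nucleolus, and cells under stress or at rest switch on growth arrest genes, while immediate early genes are transcribed within minutes of a stimulus such as neuronal activity.

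The libraries themselves differed along the same contrast. Among uniquely aligned reads, the share outside counted features averaged 37.2 ± 1.82% in the 8 middle libraries and 32.7 ± 1.45% in the 8 extreme libraries (SD, n = 8 each), a difference of 4.44 percentage points (exact permutation test over 12870 splits, two-sided p = 0.000466, adjusted p = 0.00117 over 3 read shares, smallest possible p 0.000155). Its group means were 33.2 ± 1.92% in DMSO, 37.0 ± 1.12% at 0.1 µM, 37.3 ± 2.52% at 1 µM and 32.2 ± 0.746% at 10 µM (SD, n = 4 each). The 4 libraries at 10 µM lay between 31.7% and 33.3%, below all 8 middle libraries, and DMSO replicate 4 at 35.5% was the only extreme library that reached into the middle range of 35.1% to 40.4%. Such reads can come from introns, from unannotated transcripts, from the strand opposite a gene or from DNA, and these counts do not say which. Taken over all entries of a library, multiply aligned reads included, the share was 1.18 points higher on the middle side (exact permutation test, two-sided p = 0.438).

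The share of reads overlapping more than 1 gene was lower on the middle side, 0.407% against 0.446% of unique reads (exact permutation test, two-sided p = 0.000777, adjusted p = 0.00117). Reads not uniquely aligned made up 38.5% and 33.8% of all entries (exact permutation test, two-sided p = 0.254). The libraries held 8069225 to 15531744 counts in genes, with overlapping ranges on both sides. On the second principal component of expression, which held 13.5% of the variance, the 8 middle libraries scored between -24.1 and 0.83 and the 8 extreme libraries between 5.86 and 18.7, so the sides did not overlap there. The counts and the leading genes are therefore given also from a fit that holds the no-feature share as a covariate, and the part of the share in the results beyond that was not tested.

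**Figure D1:**
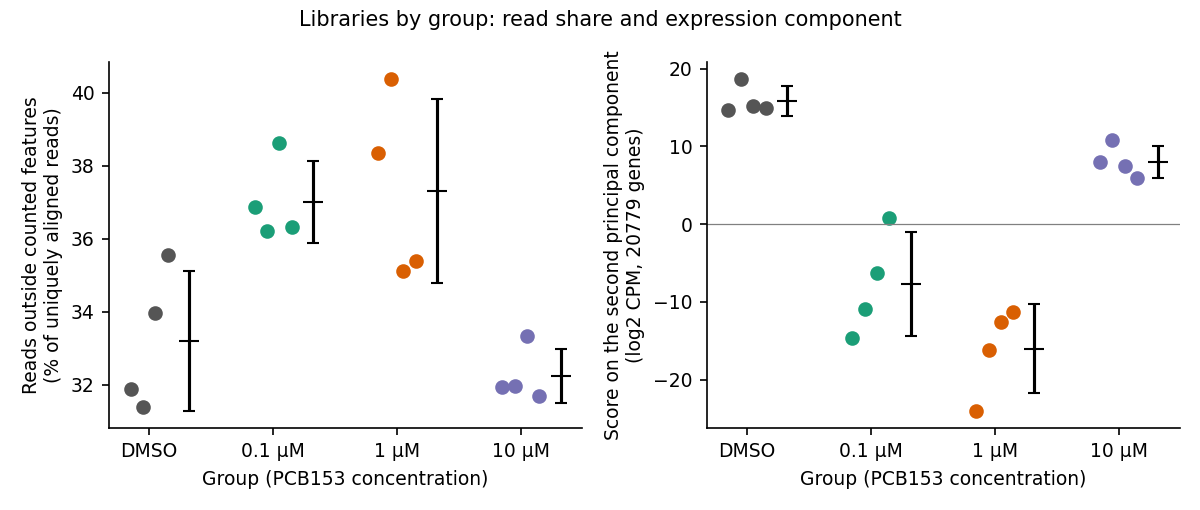
Read share outside counted features in percent of uniquely aligned reads (left) and score on the second principal component of log2 CPM (right) for each of the 16 libraries by group; bars are mean and SD, n = 4. The 0.1 and 1 µM libraries lie at 35.1% or above on the left, and on the right all 8 lie below all 8 libraries of DMSO and 10 µM.

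Of 32105 genes in the files, 20779 had at least 1 CPM (counts scaled to 1e6 per library) in at least 4 libraries and were tested. The middle side differed from the extreme side in 2456 genes at an adjusted p under 0.05 (edgeR quasi-likelihood test with Benjamini-Hochberg adjustment), which is 11.8% of those tested. In 1348 genes (6.49%) expression was higher at the middle concentrations and in 1108 (5.33%) it was lower. Differences were mostly small: the called genes had a median absolute difference of 0.24 log2 units, against 0.10 over all genes tested, and 25 genes differed 2-fold or more, 17 up and 8 down. The median difference over all genes was 0.00085 after TMM scaling of the libraries, and 0.0144 with total-count scaling. TMM scaling itself places the bulk of genes near 0, so this value is no result about the sides.

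With the no-feature share in the fit, 107 genes passed (88 higher and 19 lower, 0.515% of those tested), and 98 of them were among the 2456. In that fit the called genes kept a median of 0.872 of their difference and 2414 of the 2456 kept its sign, while the standard error grew by a median factor of 1.78. Without the 3 libraries that stood apart technically (1 µM replicate 1 with the fewest counts, 1 µM replicate 2 with the highest no-feature share and 0.1 µM replicate 3 with the most multiply aligned reads), a choice made after seeing the data, 721 genes were higher and 416 lower, and 1084 of these were among the 2456.

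**Figure D2:**
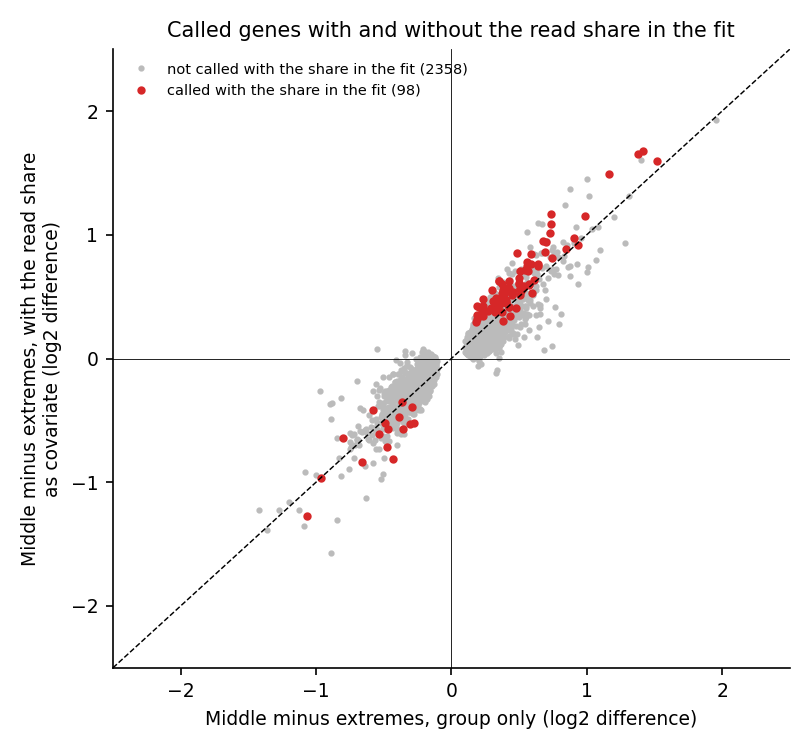
Log2 difference of the middle side from the extreme side in the 2456 called genes, without (horizontal) and with (vertical) the no-feature share as a covariate; red points are the 98 genes that pass the threshold in both fits and the dashed line marks equal values. Most points keep their side of 0, and few pass the threshold with the share in the fit.

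An averaged contrast can be passed without a turn in the dose response, so the middle mean was also tested against each extreme alone. In 485 of the 2456 genes (19.7%) it differed from both DMSO and 10 µM in the same direction, 301 higher and 184 lower. In 597 genes (24.3%) it differed from DMSO only, the pattern of a step at the lowest dose that holds to the highest, although a missed test does not show that the middle mean and 10 µM were equal, and 248 of the 597 also differed between 10 µM and DMSO. In 1208 genes (49.2%) it differed from 10 µM only. Of these, 441 also differed between 10 µM and DMSO, and for the others no departure of 10 µM from DMSO was called. In 20 genes the middle mean lay between both extremes and differed from each, and 146 genes passed neither single test. Over all genes tested, the middle mean differed from DMSO in 2106 and from 10 µM in 3865. With the no-feature share in the fit these numbers were 620 and 67. The classes come from the fit without the share and were not drawn up again with it. The contrast for 10 µM against DMSO called 3963 genes (19.1%), and 1 µM against 0.1 µM called 220 (1.06%). Taken singly, 0.1 µM differed from DMSO in 746 genes and from 10 µM in 4593. For 1 µM these numbers were 2673 and 1330. The small count for 1 against 0.1 µM therefore does not show that these groups were equal. Of the 2456 genes, 2000 had the same sign in all single comparisons of 0.1 and 1 µM with DMSO and 10 µM, and 456 did not.

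The strictest reading asks that 0.1 and 1 µM each differ from DMSO and from 10 µM. It was met by 71 genes that were higher (0.342% of those tested) and 41 that were lower (0.197%). With the no-feature share in the fit, 7 higher and 4 lower met it. Libraries were fully apart, with all 8 middle libraries above all 8 extreme ones in 106 genes (0.51%) and below them in 93 (0.448%). Of these, 55 and 35 also met the strictest reading. These counts share libraries with the contrast itself and describe it.

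**Figure D3:**
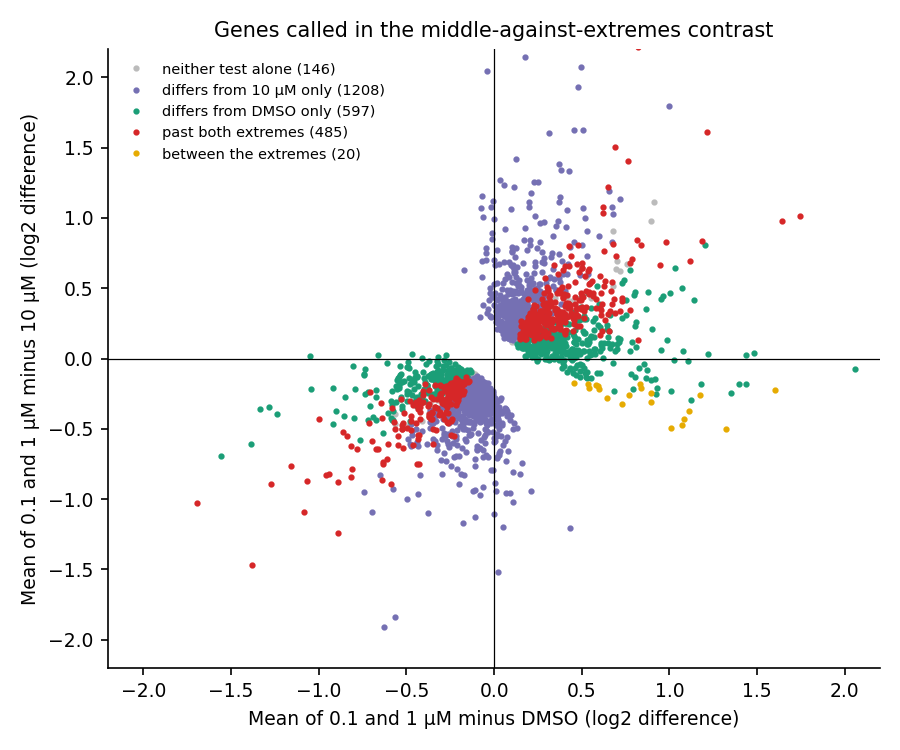
Middle mean minus DMSO (horizontal) against middle mean minus 10 µM (vertical), in log2 units, for the 2456 genes of the contrast, coloured by which extremes the middle mean differed from; 2 genes lie outside the axes. The 485 genes past both extremes occupy the upper right and lower left corners, and the 1208 genes that differ from 10 µM only lie along the vertical axis.

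Among the genes highest at the middle concentrations were pprc1 and CYP2R1. In both, the 8 middle libraries did not overlap the 8 extreme ones. This was a condition for picking the 10 highest and 10 lowest of the genes named here. For the genes picked so, the gap between the sides is therefore no separate result. The gene pprc1, which encodes a relative of the PGC-1 coactivators of mitochondrial and growth genes, read 14.8, 12.3, 10.9 and 8.91 CPM in DMSO and 21.8, 20.1, 17.6 and 17.9 at 10 µM. It read 34.7, 34.5, 30.5 and 23.6 CPM at 0.1 µM and 43.5, 48.4, 61.5 and 46.0 at 1 µM. All 8 middle libraries were above all 8 extreme ones, with 1 µM the highest group and 10 µM above DMSO. Its difference was 1.38 ± 0.11 log2 units (SE, adjusted p = 2.04e-06), and 1.65 ± 0.17 with the no-feature share in the fit (adjusted p = 0.000338). From DMSO the middle mean differed by 1.75 ± 0.14 and from 10 µM by 1.02 ± 0.14 log2 units.

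CYP2R1, in mammals the liver enzyme that adds the first hydroxyl group to vitamin D, had 6.59, 10.5, 8.21 and 4.17 CPM in DMSO and 6.76, 5.55, 6.11 and 3.75 at 10 µM. Its middle libraries had 19.8, 16.6, 13.9 and 11.1 CPM at 0.1 µM and 12.2, 21.6, 22.2 and 18.9 at 1 µM. The lowest middle library was thus just above the highest control. The difference was 1.41 ± 0.20 log2 units (adjusted p = 0.000567) and 1.68 ± 0.33 with the share in the fit (adjusted p = 0.0492).

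The long noncoding RNA gene gas5, a host of small nucleolar RNAs whose transcript builds up in growth-arrested mammalian cells, was higher on the middle side too. It read 17.7, 16.6, 19.5 and 17.2 CPM in DMSO, 34.1, 27.3, 27.5 and 21.2 at 0.1 µM, 29.8, 27.4, 32.8 and 23.6 at 1 µM, and 12.5, 11.5, 11.2 and 12.4 at 10 µM. The groups at 0.1 and 1 µM overlapped each other and lay above DMSO, while 10 µM lay below DMSO. Its difference was 0.94 ± 0.08 log2 units (adjusted p = 1.11e-06), and 0.91 ± 0.15 with the share (adjusted p = 0.00897).

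Several further genes that work in the nucleolus, in splicing and at the start of translation were higher on the middle side. DKC1, the pseudouridine synthase of the H/ACA particles and of telomerase, averaged 38.5 ± 3.38 CPM in DMSO, 52.8 ± 7.19 at 0.1 µM, 59.6 ± 5.37 at 1 µM and 36.0 ± 0.469 at 10 µM (SD, n = 4). It rose by 0.59 ± 0.06 log2 units (adjusted p = 2.04e-06), or 0.76 ± 0.10 with the share (adjusted p = 0.000452). The lowest middle library of DKC1, 45.9 CPM, was above the highest extreme one, 41.6. PPAN, a factor of large ribosomal subunit assembly, rose by 0.43 ± 0.06, and npm1a, which encodes the nucleolar chaperone nucleophosmin, by 0.39 ± 0.05 log2 units.

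ABCF2 ENSDARG00000038785, a member of the ABC family that lacks membrane spans, had medians of 92.7 CPM on the middle side (66.9 to 106) and 49.2 on the extreme side (36.7 to 62.8), a difference of 0.90 ± 0.09 log2 units (adjusted p = 1.75e-05). The gene eif4a1a, which encodes the RNA helicase of the cap-binding complex, rose by 0.51 ± 0.06 log2 units (adjusted p = 6.22e-05), with 1 middle library inside the extreme range of 160 to 205 CPM. PDCD4, an inhibitor of that helicase in mammals, fell by 0.58 log2 units (SE 0.05, adjusted p = 5.1e-07), from a median of 58.3 CPM (55.0 to 67.8) on the extreme side to 40.1 (35.1 to 44.7). Thus the helicase gene and its inhibitor gene moved in opposite directions, and both passed with the share in the fit (adjusted p = 0.04 and 0.0204). Translation factors as a list did not rise: of 68 tested 7 rose and 5 fell, 17.6% called beside 11.8% of all genes tested. Over that list 25 had a positive and 43 a negative difference (median -0.08). With the share in the fit 1 rose and 0 fell.

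A list of 98 ribosome assembly genes, written after such genes had been seen among the called ones, held 18 that rose and 0 that fell, with a median of 0.06 log2 units over the list. The called share of 18.4%, beside 11.8% of all genes tested, follows in part from that choice. Of the 18, 10 were past both extremes. When the share was in the fit, 5 rose and the median was 0.20. The structural ribosomal protein genes went the other way: of 86 tested, 31 fell and 1 rose (37.2% called), 83 had a negative difference, and the list median was -0.12. Their differences were small, as in RPS2, a protein of the small subunit, which averaged 1817 ± 72.6 CPM in DMSO, 1553 ± 121 at 0.1 µM, 1585 ± 98.5 at 1 µM and 1834 ± 76.1 at 10 µM. None of the 86 passed with the share in the fit and the median was -0.02. The number that fell also rested on single libraries, from 16 without 10 µM replicate 2 to 51 without 0.1 µM replicate 4, and was 4 without the 3 libraries that stood apart.

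Calls among genes of splicing and chromatin were mostly upward. Of 84 spliceosome genes 14 rose and 1 fell (median 0.07), and of 51 chromatin regulators 12 rose and 2 fell (median 0.07), 10 of the 15 called spliceosome genes and 4 of the 14 called chromatin genes by difference from 10 µM only. The called shares were 17.9% and 27.5%, beside 11.8% called and 6.49% higher over all genes tested. The cyclin gene ccnl1b, whose mammalian relatives act with splicing kinases, read a median of 62.9 CPM on the middle side (52.3 to 69.5) and 41.7 on the extreme side (35.7 to 47.0). It rose by 0.57 ± 0.05 log2 units (adjusted p = 8.16e-07) and also passed with the share (adjusted p = 0.0061). The splicing factor genes srrm2 and prpf38b rose by 0.27 ± 0.04 and 0.31 ± 0.05, and KDM6B, an H3K27 demethylase, by 0.32 ± 0.04. None of the spliceosome or chromatin genes passed with the share in the fit. Of the spliceosome genes 24 rose without 0.1 µM replicate 4, 4 without the 3 libraries that stood apart, and 3 among the share-limited libraries described at the end (median -0.02). The share-limited libraries include none at 0.1 µM, so that fit sets 1 µM alone against the extremes. Of the chromatin genes 6 rose without the 3 libraries and 7 among the share-limited ones.

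Other genes higher than at both extremes had roles in lipids, transport and signalling. ELOVL1 ENSDARG00000099960, an elongase of very long fatty acids, rose by 0.64 ± 0.08 log2 units, and SLC37A1, a sugar phosphate exchanger, by 0.57 ± 0.05. DYRK2, a kinase that in mammals phosphorylates p53, rose by 0.59 ± 0.06, from medians of 102 to 157 CPM, and pom121, a nuclear pore gene, by 0.58 ± 0.06. Of these, pom121 lost its call with the share in the fit (adjusted p = 0.0542). The receptor gene ldlrb of low density lipoprotein rose by 0.73 ± 0.10, but 1 µM replicate 1 read 25.1 CPM, inside the extreme range of 22.0 to 27.13. Of 30 cholesterol genes 5 rose and 1 fell (median 0.26), 20% called beside 11.8% of all genes tested. Among those that rose were ldlrb and IDI1 (0.34 ± 0.07), an enzyme of isoprenoid synthesis. Of the 6 called, 2 were past both extremes, 1 differed from DMSO only and 3 from 10 µM only. None passed with the share in the fit, with which the median was 0.26. Without DMSO replicate 2 or 1 µM replicate 2, or without the 3 libraries, 3 rose.

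A number of genes known to respond to stress, growth arrest or neuronal activity were lower at the middle concentrations than at both extremes. GADD45B ENSDARG00000027744, a stress sensor of the growth arrest and DNA damage family, read 66.7, 79.9, 80.5 and 72.8 CPM in DMSO and 47.0, 75.9, 50.4 and 57.5 at 10 µM. It read 33.0, 30.4, 26.8 and 38.4 CPM at 0.1 µM and 38.8, 22.7, 25.6 and 33.6 at 1 µM. No middle library reached the lowest extreme one. It fell by 1.08 log2 units (SE 0.13, adjusted p = 0.000197), and with the share in the fit its difference was -0.92 ± 0.23 (adjusted p = 0.137).

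The gene nupr1b, which encodes a small nuclear protein induced by stress, read 48.2, 35.4, 53.7 and 51.1 CPM in DMSO and 62.7, 55.4, 61.9 and 59.5 at 10 µM. Its values were 24.7, 21.1, 24.1 and 27.8 CPM at 0.1 µM and 32.8, 24.9, 25.4 and 23.8 at 1 µM. The sides did not overlap, and 10 µM was the highest group. It fell by 1.06 log2 units (SE 0.08, adjusted p = 1.17e-06), and its difference with the share was -1.27 ± 0.14 (adjusted p = 0.000338).

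TXNIP ENSDARG00000070000, an arrestin family gene whose mammalian product binds thioredoxin and limits glucose uptake, read 46.2, 51.9, 44.5 and 43.0 CPM in DMSO and 35.9, 32.04, 43.2 and 30.2 at 10 µM. It read 21.1, 19.99, 20.4 and 26.97 CPM at 0.1 µM and 25.6, 17.8, 15.5 and 20.1 at 1 µM. Again the sides were apart. It fell by 0.96 log2 units (SE 0.10, adjusted p = 2.14e-05), and passed with the share (-0.97 ± 0.18, adjusted p = 0.0309). The second gene with this symbol, TXNIP ENSDARG00000036107, had another pattern: 431 ± 14.3 CPM in DMSO, 343 ± 78.0 at 0.1 µM, 427 ± 101 at 1 µM and 680 ± 66.8 at 10 µM (SD, n = 4), so that the middle mean differed from 10 µM only.

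The immediate early gene egr4, a zinc finger transcription factor, read 31.1, 39.4, 32.6 and 29.8 CPM in DMSO and 32.4, 31.5, 32.7 and 34.2 at 10 µM. It read 21.8, 17.1, 20.8 and 24.2 CPM at 0.1 µM and 18, 15.5, 15.3 and 19.6 at 1 µM. Between DMSO and 10 µM the difference was -0.02 ± 0.10 log2 units, and both groups were above every middle library. It fell by 0.80 log2 units (SE 0.07, adjusted p = 6.43e-07), and passed with the share (-0.64 ± 0.13, adjusted p = 0.019).

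Of 45 immediate early genes tested 17 fell and 1 rose (median -0.17), 10 of the 18 past both extremes, and 5 met the strictest reading. The called share was 40%, beside 11.8% of all genes tested, in a list chosen with earlier results of these data known. NPAS4 ENSDARG00000055752, a transcription factor induced by neuronal activity, fell by 0.66 log2 units (SE 0.09), ier2a by 0.69 (SE 0.12), and CCN2, a matrix protein gene under growth factor control, by 0.69 (SE 0.10). In these the 8 middle libraries lay below all 8 extreme ones: NPAS4 read 28.8 to 46.7 CPM against 53.1 to 63.6. FOS, the founding member of the group, fell by 1.00 (SE 0.20, adjusted p = 0.00844), but against DMSO only, with 131 ± 22.4 CPM in DMSO, 55.1 ± 19.8 at 0.1 µM, 45.9 ± 10.6 at 1 µM and 76.5 ± 25.3 at 10 µM. With the share in the fit 1 of the 45 passed while the list median was -0.19, and without the 3 libraries that stood apart 8 fell and 1 rose, with FOS no longer called (adjusted p = 0.0643).

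A list of 54 growth arrest and catabolic genes, written like the assembly list after its members had been seen among the called genes, held 24 that fell and 1 that rose, with a median of -0.29 log2 units. The called share of 46.3%, beside 11.8% of all genes tested, follows in part from that choice. Of the 25 called, 10 were past both extremes and 14 differed from 10 µM only. CCNG2, an unusual cyclin of quiescent cells, fell by 0.60 log2 units (SE 0.08, adjusted p = 0.000301), from a median of 82.3 to 56.2 CPM. With the share in the fit 5 fell and the median was -0.24, and without the 3 libraries that stood apart 15 fell and 1 rose.

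Lower values past both extremes were also seen in genes of other kinds. The co-chaperone gene dnaja1 fell by 0.53 log2 units (SE 0.07), with 15.6 ± 2.84 CPM at 0.1 µM and 15.2 ± 1.73 at 1 µM against 22.7 ± 1.25 in DMSO and 21.8 ± 0.671 at 10 µM, and passed with the share (adjusted p = 0.04). GPRC6A, a receptor that senses amino acids in mammals, fell by 0.71 (SE 0.14) and ftr01, a member of a fish TRIM family, by 0.68 (SE 0.11), both at 1.41 to 4.67 CPM. PTGS2 ENSDARG00000004539, an inducible prostaglandin synthase, fell by 0.58 (SE 0.12), OLIG2, a factor of oligodendrocytes and motor neurons, by 0.42 (SE 0.08), and crx, a photoreceptor transcription factor, by 0.28 (SE 0.05). None of these last 5 passed with the share in the fit (adjusted p from 0.165 to 0.483).

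**Figure D4:**
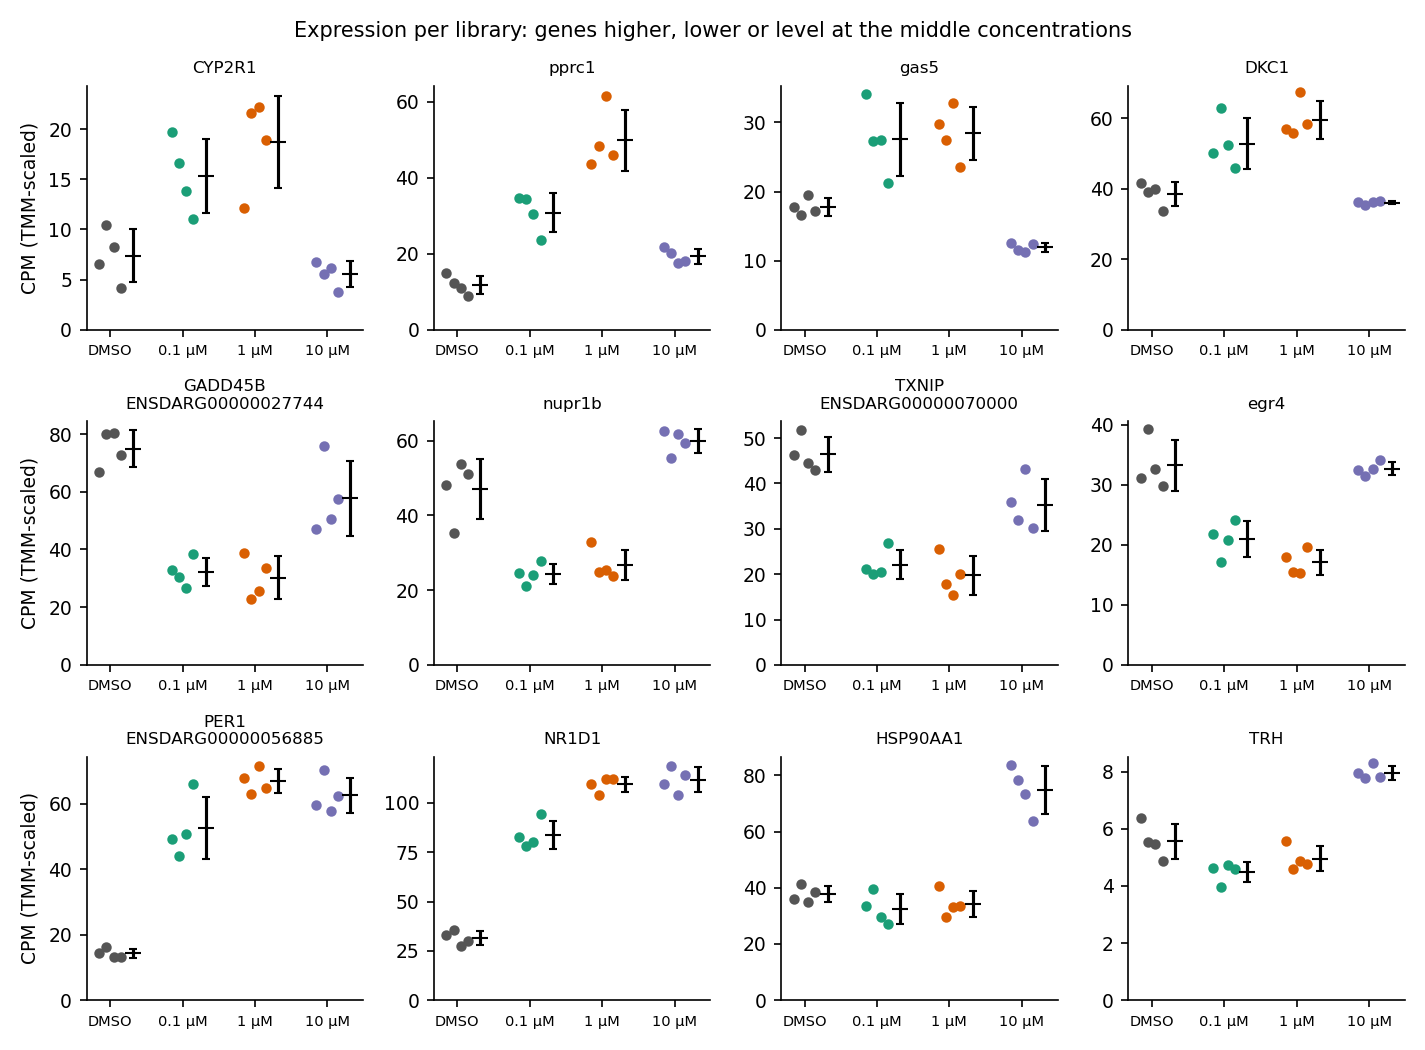
CPM in each library for 12 genes by group, with mean and SD (n = 4). The first 4 genes are highest at 0.1 and 1 µM and the next 4 are lowest there. In the last row PER1 is low in DMSO alone. NR1D1 is lowest in DMSO and lower at 0.1 µM than at 1 and 10 µM. HSP90AA1 and TRH are high at 10 µM alone.

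Most called circadian clock repressors had a different shape, a difference of the middle mean from DMSO alone. The clock's repressors, the PER, CRY and REV-ERB families, shut off the CLOCK and BMAL activators within the daily cycle. Of 19 repressor genes tested 13 were higher and 3 lower on the middle side (median 0.33), but 10 of the 16 differed from DMSO only, 3 lay between the extremes, 1 was past both, and 0 met the strictest reading. Of 15 clock output genes 7 were higher and 0 lower. The called shares were 84.2% of the repressors and 46.7% of the output genes, beside 11.8% of all genes tested. Both lists were chosen with earlier results of these data known. In most of the called repressors DMSO alone stood low.

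PER1 ENSDARG00000056885, a period gene, read 14.6, 16.3, 13.1 and 13.2 CPM in DMSO, 49.4, 44.1, 50.9 and 66.1 at 0.1 µM, 68.0, 63.1, 71.5 and 65.0 at 1 µM, and 59.7, 70.22, 57.9 and 62.5 at 10 µM. The DMSO libraries stood below all exposed ones and the exposed groups overlapped. Its middle mean exceeded DMSO by 2.06 ± 0.10 log2 units (adjusted p = 1.29e-10) and differed from 10 µM by -0.08 ± 0.08 (adjusted p = 0.573). NR1D1, the REV-ERB alpha gene, had its highest mean at 10 µM, with 31.5 ± 3.59 CPM in DMSO, 83.8 ± 7.21 at 0.1 µM, 109 ± 3.87 at 1 µM and 112 ± 6.43 at 10 µM, with a middle mean 0.22 log2 units under 10 µM (difference -0.22 ± 0.06, adjusted p = 0.0131). PER2 alone among the repressors was past both extremes, by 0.82 ± 0.05 over DMSO and 0.13 ± 0.04 over 10 µM (adjusted p = 0.0388).

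Genes outside the clock lists were also lowest in DMSO. FKBP5, a chaperone gene induced by glucocorticoids, read 151 ± 9.10 CPM in DMSO, 361 ± 28.2 at 0.1 µM, 438 ± 53.8 at 1 µM and 451 ± 47.4 at 10 µM. PFKFB4, an enzyme that sets the level of a glycolysis activator, read 87.2 ± 6.34, 175 ± 6.62, 272 ± 43.9 and 308 ± 50.6 CPM in the same order, means that increased in that order, and the contrast calls it although its middle mean lay under 10 µM by 0.50 log2 units (difference -0.50 ± 0.09). In the downward direction SERPINH1 ENSDARG00000019949, the collagen chaperone HSP47, read 18.1 ± 3.43 CPM in DMSO and between 6.23 and 9.48 on average in the 3 exposed groups. Clock repressors kept 8 calls upward with the share in the fit, and the list median was then 0.35.

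The most common class, in the fit without the share, was a middle mean that differed from 10 µM and missed the test against DMSO. HSP90AA1, the inducible cytosolic chaperone gene, read 36.0, 41.4, 34.8 and 38.3 CPM in DMSO, 33.6, 39.5, 29.5 and 27.23 at 0.1 µM, 40.7, 29.5, 33.2 and 33.6 at 1 µM, and 83.8, 78.5, 73.3 and 63.7 at 10 µM. All 4 libraries at 10 µM stood above the other 12. Its middle mean was 1.17 log2 units below 10 µM (difference -1.17 ± 0.09) and -0.18 ± 0.10 from DMSO (adjusted p = 0.284). The gene insig1, a sterol sensor partner, had the same form with 33.7 ± 6.17, 40.0 ± 3.11, 38.7 ± 6.76 and 75.4 ± 7.35 CPM in DMSO, 0.1, 1 and 10 µM. Its direction sets it apart from the other 5 called cholesterol genes, all higher on the middle side.

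The glycolysis, synapse and neuropeptide lists had most of their calls in this class. Of 44 glycolysis genes 12 fell and 2 rose (median -0.11), 11 of the 14 by difference from 10 µM only, among them ENO3, the muscle enolase, at 580 ± 50.2 and 575 ± 49.6 CPM against 625 ± 26.6 in DMSO and 719 ± 9.91 at 10 µM. The number of glycolysis genes that fell was 5 without 10 µM replicate 1 and 1 without the 3 libraries that stood apart. All 8 synapse genes that fell, of 70 tested, and all 5 neuropeptide genes that fell, of 31, differed from 10 µM only, and without the 3 libraries 0 synapse and 2 neuropeptide genes fell. In the glycolysis, synapse and neuropeptide lists 31.8%, 11.4% and 16.1% were called. Over all genes tested 11.8% were called and 5.33% fell, so the synapse share called is near that of all genes. This class held 49.2% of all called genes. TRH, the thyrotropin-releasing hormone gene, read 5.56 ± 0.616 CPM in DMSO, 4.48 ± 0.355 at 0.1 µM, 4.95 ± 0.433 at 1 µM and 7.97 ± 0.244 at 10 µM.

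In the same shape 6 of 32 collagen genes rose and 0 fell, COL4A1 of basement membranes by 0.15 ± 0.04 log2 units, with 10 µM the lowest group. The called share was 18.8%, beside 11.8% called and 6.49% higher over all genes tested. Without the 3 libraries 2 collagen genes rose. Heat shock genes were mixed in shape: of the 9 called, 4 differed from 10 µM only, 3 from DMSO only, 1 was past both extremes and 1 passed neither single test. Of 26 tested 7 fell and 2 rose (34.6% called), or 3 and 0 without the 3 libraries, and 4 fell without DMSO replicate 2, 0.1 µM replicate 3 or 10 µM replicate 1. With the share in the fit, 0 genes of the synapse, neuropeptide and collagen lists passed, 1 of the glycolysis list did (upward) and 1 of the heat shock list did (downward).

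**Figure D5:**
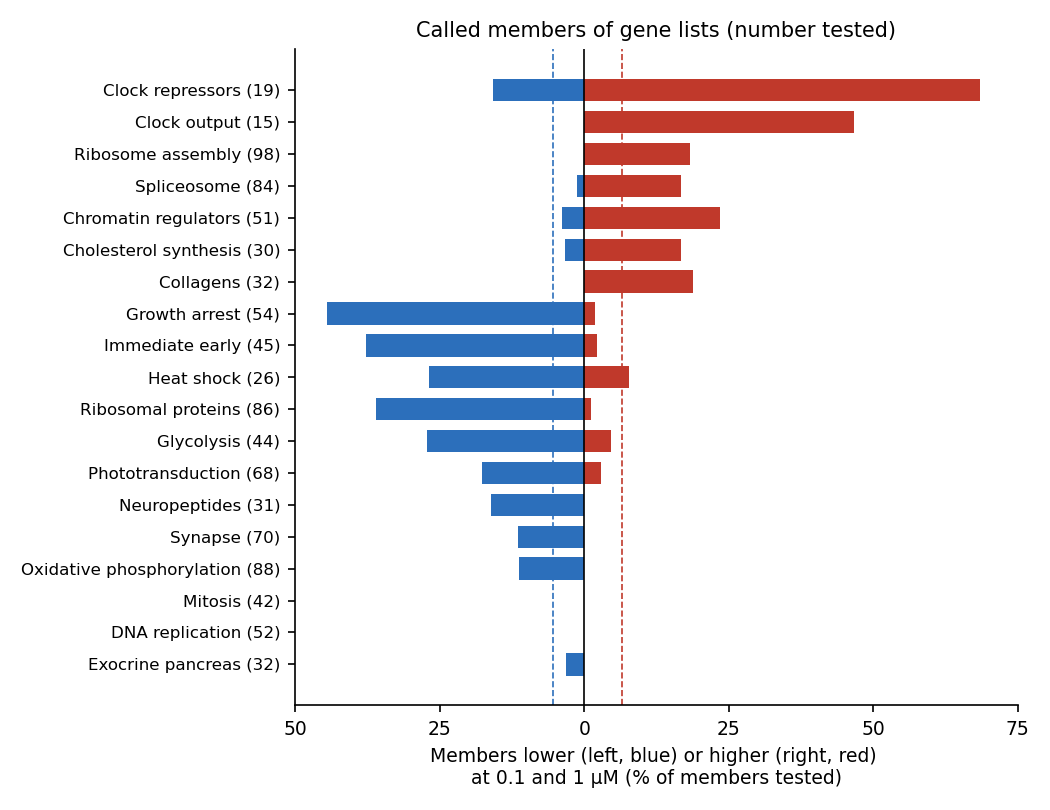
Percent of tested members called higher (right, red) or lower (left, blue) on the middle side for 19 gene lists, with the number tested in brackets; dashed lines mark the share over all tested genes, 6.49% higher and 5.33% lower. Clock repressors reach furthest to the right and growth arrest genes furthest to the left, and mitosis and DNA replication have no called member. The growth arrest and ribosome assembly lists were written after their members had been seen among the called genes. The lengths of their bars follow in part from that choice and are not comparable with the others. The other lists were chosen with earlier results of these data known, so their bars are not free of choice either.

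Markers of many larval tissues were detected, as the label of whole animals implies. In some lists nearly all members differed in one direction, with few of them called. Of 32 exocrine pancreas genes 31 had a negative difference with a median of -0.38 log2 units. Of the list 1 passed (3.12%, under the 11.8% called over all genes tested). The number of these genes that passed was 0 without 0.1 µM replicate 3, 1 µM replicate 2, 10 µM replicate 2 or 10 µM replicate 4, and 3 without DMSO replicate 3. Their summed level ranged from 6392 to 13430 CPM in DMSO, 5064 to 8514 at 0.1 µM, 6076 to 12520 at 1 µM and 11060 to 13270 at 10 µM, so of the 4 groups 0.1 and 10 µM did not overlap. The trypsin gene prss59.2 illustrates the spread, with 996 ± 294, 636 ± 154, 908 ± 230 and 1241 ± 89.1 CPM (difference -0.55 ± 0.17, adjusted p = 0.055 by edgeR, 0.0147 by DESeq2). The list median was 0.31 with the share in the fit and 0.06 among the share-limited libraries, both of the opposite sign. The share-limited libraries leave out 0.1 µM, where the list median against DMSO was -0.59, beside -0.09 at 1 µM. The single gene whose level within groups followed the no-feature share past the threshold was cela1.3, a pancreatic elastase, at -0.38 log2 units per percentage point (adjusted p = 0.0274).

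Of 48 lens crystallin genes 47 had a negative difference, with a median of -0.32, and 4 fell (8.33%, under the 11.8% called over all genes tested). The median was 0.18 with the share in the fit and 0.003 among the share-limited libraries, none of them at 0.1 µM. The number that fell ran from 2 (without DMSO replicate 1, among others) to 7 (without DMSO replicate 3) when 1 library was left out, and was 0 without the 3 libraries that stood apart (median -0.13). Their sums spanned 3818 to 7183 CPM in DMSO and 6599 to 8486 at 10 µM, and 3855 to 7343 over the middle libraries, which overlaps both. Of 68 phototransduction genes 12 fell and 2 rose (20.6% called, median -0.10), or 4 and 1 without the 3 libraries. Their sums were 7468 to 7875 CPM at 10 µM, above the 6267 to 7013 of the other groups. Of 73 skeletal muscle genes 6 fell and 1 rose, near the 5.33% of all tested genes that fell, and 3 (without DMSO replicate 1 or 1 µM replicate 4) to 12 (without 1 µM replicate 1) fell when 1 library was left out. One of the 6 was pvalb4, a calcium buffer of fast fibres, which fell by 0.22 log2 units (SE 0.04). Muscle sums of 96360 to 106800 CPM at 10 µM stood just above the 86480 to 96260 of DMSO and the 82840 to 96030 of 0.1 µM, with 1 µM at 87200 to 106500. The liver, intestine and vascular lists had 1 call each, all downward, of 25, 30 and 24 tested, the erythrocyte list 2 upward of 28, and the leukocyte list 1 upward and 2 downward of 34. In that order 4%, 3.33%, 4.17%, 7.14% and 8.82% were called, each under the 11.8% called over all genes tested. Of 42 epidermis genes 5 rose and 5 fell (23.8% called), and of 42 cartilage and bone genes 1 rose and 4 fell (11.9%). With the share in the fit 1 epidermis gene fell and 0 cartilage and bone genes were called.

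Genes of cell division were lower at 10 µM and did not pass this contrast. Of 42 mitosis and 52 DNA replication genes 0 were called by edgeR, although 36 and 26 of them were lower at 10 µM than in DMSO. Over all 20779 genes tested 1848 were lower at 10 µM than in DMSO. Of the replication genes 48 had a positive difference (median 0.13), with medians of 0.16 log2 units over DMSO at 0.1 µM and -0.32 at 1 µM. The replication list median was 0.11 with the share in the fit. Among the share-limited libraries, which leave out 0.1 µM, it was -0.12. POLE, a DNA polymerase subunit, read 31.4 ± 3.55, 40.3 ± 10.8, 28.1 ± 4.48 and 18.9 ± 6.12 CPM in DMSO, 0.1, 1 and 10 µM, a difference of 0.47 ± 0.16 log2 units (adjusted p = 0.073 by edgeR, 0.0353 by DESeq2 and 0.0256 by limma-voom). FOXM1, a transcription factor of dividing cells, had a difference of 0.34 ± 0.15 (adjusted p = 0.15). Among subunits of oxidative phosphorylation the 13 mitochondrially encoded ones all had a positive difference (median 0.14, 0 called) while 76 of 88 nuclear subunits had a negative one (median -0.08, 10 fell). Of the nuclear subunits 11.4% were called, near the 11.8% called over all genes tested, of which 5.33% fell. The number of nuclear subunits that fell was 17 without 0.1 µM replicate 2, 22 without 1 µM replicate 3 and 4 without the 3 libraries that stood apart. The mitochondrial median was 0.05 without the 3 libraries, -0.10 with the share in the fit and -0.05 among the share-limited libraries, which leave out 0.1 µM.

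In the dioxin receptor list 0 of the 11 genes tested were called in this contrast. With 11.8% of all genes tested called, a list this short does not tell its share from theirs. Of the 11 genes, 2 were higher at 10 µM than in DMSO, beside 2115 of 20779 genes tested. CYP1A1, the marker gene of the dioxin receptor pathway, read 29.7 ± 1.70, 33.0 ± 3.90, 32.4 ± 4.87 and 34.9 ± 5.33 CPM, a difference of 0.02 ± 0.08 log2 units (adjusted p = 0.908). Of 41 genes of the CYP2 and CYP3 families 4 rose and 0 fell. That is 9.76% called, near the shares over all genes tested, 6.49% higher and 11.8% called in either direction. CYP2R1 was the only 1 of the 41 past the threshold with the share in the fit.

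The no-feature share varied by 1.65 to 5.28 percentage points within a group, beside a gap of 4.44 points between the sides. For each gene a slope on the share, taken as common to all groups, was estimated from the 4 libraries of each group. The contrast with the share in the fit rests on that slope. Over the 20779 genes 1 passed an adjusted p of 0.05 and 1258 (6.05%) had an unadjusted p under 0.05. The within-group slope was positive in 47.9% of all genes tested, so a negative slope was the more common one. It was positive in 58.2% of the genes called higher and negative in 70.0% of those called lower. With only libraries whose share did not exceed the highest extreme value of 35.5%, which left 2 middle libraries, both at 1 µM, and all 8 extreme ones, 707 genes were higher and 347 lower, 721 of them among the 2456. The mean share was 35.2% in these 2 libraries and 32.7% in the 8, so a gap remained, and this choice was made after seeing the data.

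Described by shape, 53 of the 485 genes past both extremes passed the contrast with the share in the fit, against 31 of 597 that differed from DMSO only and 9 of 1208 that differed from 10 µM only. Of the 112 genes that met the strictest reading 36 passed. Because the share is higher in nearly every middle library, the share and the concentrations cannot be told apart fully.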

How the data were processed

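The deposited files hold whole-number read counts per Ensembl gene for each of 16 libraries, with no normalization. Per the submitters' processing notes, Trimmomatic, HTSeq, edgeR and the build GRCz10 were used, without versions, and per the labels the libraries are strand-specific total RNA after Ribo-Zero Gold. File names state reverse-strand union counting. Neither the aligner nor the annotation is named: not given in the sources used here. The 5 HTSeq summary lines name no gene and stayed out of library sizes and tests. They gave the read shares: 31.4% to 40.4% of unique reads lay outside counted features.

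Symbols were matched for 26269 of 32105 identifiers, the identifier being printed where a symbol is shared. Reads shared by duplicate genes may be split between them. Genes with at least 1 CPM in at least 4 libraries were fitted with edgeR 4.0.16 in R 4.3.3 (TMM scaling, robust quasi-likelihood test, group as the term), with Benjamini-Hochberg adjustment over 20779 genes. The common biological coefficient of variation was 0.0847. SE is the log2 difference divided by the root of F. CPM are TMM-scaled, mean ± SD. "Rose" and "fell" mean an adjusted p under 0.05. The script was tested on simulated data. DESeq2 1.42.0 and limma-voom (limma 3.58.1) were alternatives.

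The members, lists and tests were chosen with earlier results of these data known, and 2 of 49 lists after their values were seen. Patterns in the lists that caught genes outside a family were corrected by name. Named genes were the 10 highest and 10 lowest with non-overlapping sides, 5 up and 5 down past all 4 single comparisons, the 3 genes of smallest p in each list, and PER1, PER2, NR1D1, CYP1A1 and FOS. Not all are printed. No 2 libraries agreed within sampling noise (chi-square per degree of freedom 3.08 to 12.3 within groups). Deviations of same-numbered libraries from their group means had correlations of -0.195 to 0.257 over 24 pairs. The 2 pairs over 0.1 both joined 0.1 and 1 µM, in replicate 1 (0.257) and replicate 2 (0.114). The numbers were not taken as pairs, and whether those middle libraries are fully independent was not tested.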

Additional observations from a re-analysis of the deposited data

Results flagged for a closer look

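In 8 of 260 groups of 4 libraries checked (3.08%), over 61 named genes and 4 library measures, 1 library lay far from the other 3 by Dixon's test. Chance gives about 1 in 20. At 1 µM, ccnl1b read 69.5 CPM in replicate 2 against 62.8 to 63.3 in the others, srrm2 read 90.4 in replicate 1 against 78.2 to 80.3, and replicate 3 was high for PPAN, 30.6 against 27.4 to 27.7, and for COL4A1, 289 against 271 to 273. At 0.1 µM, TXNIP ENSDARG00000070000 read 26.97 CPM in replicate 4 against 19.99 to 21.12. In DMSO, IDI1 read 43.1 CPM in replicate 2 against 47.8 to 48.5, and dbpb, a clock output gene, 26.3 in replicate 1 against 24.0 to 24.3. At 10 µM, insig1 read 64.5 CPM in replicate 3 against 77.6 to 80.1.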

How the results depend on the processing

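Against 1348 genes higher and 1108 lower on the middle side, the no-feature share as a covariate gave 88 and 19, leaving out the 3 libraries that stood apart 721 and 416, and keeping only libraries with a share up to the highest extreme one 707 and 347. Against 10 µM alone the middle mean was lower in 2051 genes. Total-count scaling moved the part called higher from 54.9% to 63.8% (1580 and 896). Other filters, size factors, DESeq2 and limma-voom stayed within 1.5 times. The cause of these changes was not tested. Labels share replicate numbers that were not taken as pairs: with the replicate block 1328 genes were higher and 1067 lower, 2242 of them shared.

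Leaving out single libraries gave 1046 to 1647 genes higher and 744 to 1458 lower, and 2583 (without 10 µM replicate 2) to 4396 called at 10 µM against DMSO. For 1 against 0.1 µM these gave 31 (without 0.1 µM replicate 2) to 629 (without 0.1 µM replicate 4), and DESeq2 gave 588, limma-voom 135, log2 gene counts as a covariate 43 and the fit without the 3 libraries 65. Genes past all 4 single comparisons numbered 44 (without 10 µM replicate 1) to 103 (without 0.1 µM replicate 4) higher and 27 (without 1 µM replicate 2 or 10 µM replicate 2) to 62 (without 0.1 µM replicate 4) lower, 7 and 4 with the covariate and 23 and 16 without the 3 libraries. The difference in no-feature share was 3.98 to 4.85 points, and 1.18 over all entries (exact permutation test, p = 0.438).

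Over the 61 named genes refitted, none that was called lost its call in any fit leaving out 1 library. Most had been picked for a small p or for sides that did not overlap. With the share in the fit some kept their call, such as NR1D1 and FKBP5, and many lost it. Among those that lost it were HSP90AA1 (edgeR adjusted p = 0.116), CCNG2 (0.169), SERPINH1 ENSDARG00000019949 (0.196), TRH (0.226) and PFKFB4 (0.317). Signs turned in GPT ENSDARG00000055642 (0.0222) and FOXM1 (-0.0204) among share-limited libraries, in prss59.2 with the covariate (0.0865), and in CYP1A1 without 0.1 µM replicate 4, 1 µM replicate 4 or 10 µM replicate 4 (-0.0173, -0.0212 and -0.0168, leave-one-out range to 0.0731). The median SE over all tested genes was 0.0742.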
